A study of Mus musculus with 10 samples.

Results

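Expression of 8 genes listed for mature neutrophils was examined in spleens of DUSP6 KO and wild-type (WT) mice. They were S100a8, S100a9, Cxcr2, Csf3r, Ly6g, Mmp25, Retnlg and Stfa2l1. The genes were chosen by name from a table of 54532 genes, and all 8 had a row in it and enough signal to be tested. RNA was taken on day 9 after the first injection in KRN serum-induced arthritis (KSIA), a model in which antibody-rich serum of arthritic KRN x NOD F1 mice is injected into healthy animals. Each of the 10 mice gave 1 library. The 5 DUSP6 KO mice carried the Dusp6tm1Jmol deletion in the whole body, so the gene was lacking in neutrophils and in every other cell. The sample labels call this genotype a knockdown. The 5 WT mice were C57BL/6J. All 10 mice received 100 µL of pooled serum IP on days 0 and 2 and were 8 to 12 weeks old, and there was no group without serum. Animals are named by the numbers of the sample labels.

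Neutrophils are short-lived granulocytes that leave the bone marrow when they carry enough of the chemokine receptor CXCR2, and G-CSF, acting through the receptor encoded by Csf3r, drives their production. They enter joints in KSIA, and the spleen holds a reserve of them and can make new ones during inflammation. Their cytoplasm is rich in the calgranulins S100A8 and S100A9, calcium-binding proteins that pair with each other and that alarm neighbouring cells through TLR4 and RAGE once released.

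Reads counted on genes, as recovered from the deposited FPKM, summed to 14990474 to 19822673 per DUSP6 KO library. In WT libraries the sum was 15611652 to 18422147. Dusp6 itself was at 19.4 ± 2.8 FPKM in WT spleens and at 0.440 ± 0.117 FPKM in DUSP6 KO spleens (SD, n = 5 each). FPKM scales the fragments of a gene to its length and to the depth of the library, so levels can be compared between genes. The labels speak of male and female mice, but in all 10 libraries Xist was at or below 0.0206 FPKM and the Y-linked Ddx3y at or above 14.4 FPKM. The B cell gene Cd79a, which encodes a chain of the B cell receptor complex, was abundant throughout (246 to 629 FPKM), which fits the spleen label. Transcripts of the exocrine pancreas were present in 2 WT libraries. The sum over Prss2, Cela2a, Cpa1, Pnlip and Ctrb1 was 12505 FPKM in WT 67 and 149 FPKM in WT 65, against 0.0612 to 0.452 FPKM in the other 8 libraries. Values of the neutrophil genes without these libraries are given below.

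S100a8 and S100a9 lie next to each other on chromosome 3 of the mouse genome (build GRCm38, S100a8 at chr3:90668978-90670035 on the plus strand, S100a9 at chr3:90692632-90695721 on the minus strand). Cxcr2 lies at chr1:74153989-74161246 and Csf3r at chr4:126024550-126044440, both on the plus strand. The DNA just upstream of these 4 genes is shown because, as the values below show, their transcripts formed separate pairs across the spleens. It was taken from the RefSeq promoter table (GRCm38.p6), which gives the 250 bases before a RefSeq start, and is printed in the direction of transcription up to the first base of the deposited gene model. The windows are chr3:90668821-90668977 for S100a8, chr3:90695722-90695971 for S100a9, chr1:74153744-74153988 for Cxcr2 and chr4:126024409-126024549 for Csf3r. Capitals mark matches on either strand to TTGCNNAA, a form of the C/EBP motif, and to GAGGAA, a core of the PU.1 motif (TTCCTC when read from the other strand). C/EBP factors and PU.1 direct the neutrophil programme.
S100a8: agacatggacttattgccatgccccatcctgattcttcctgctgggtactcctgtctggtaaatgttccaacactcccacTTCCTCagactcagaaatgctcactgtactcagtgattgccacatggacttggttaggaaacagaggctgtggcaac
S100a9: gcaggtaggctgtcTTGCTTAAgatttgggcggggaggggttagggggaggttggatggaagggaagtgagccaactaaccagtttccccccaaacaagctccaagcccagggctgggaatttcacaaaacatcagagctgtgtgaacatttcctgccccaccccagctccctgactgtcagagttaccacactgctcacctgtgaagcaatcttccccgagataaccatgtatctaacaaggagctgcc
Cxcr2: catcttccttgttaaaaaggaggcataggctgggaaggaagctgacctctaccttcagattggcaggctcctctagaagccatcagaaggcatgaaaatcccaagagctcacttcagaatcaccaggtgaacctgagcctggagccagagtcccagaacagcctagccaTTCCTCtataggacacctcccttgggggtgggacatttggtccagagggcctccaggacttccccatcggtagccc
Csf3r: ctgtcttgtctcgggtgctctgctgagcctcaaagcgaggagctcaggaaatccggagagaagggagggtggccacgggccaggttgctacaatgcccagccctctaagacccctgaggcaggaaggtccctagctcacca

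In the full 250-base windows, GAGGAA was found at 6 of the 8 genes (S100a8, Cxcr2, Csf3r, Stfa2l1, Mmp25 and Ly6g), where 23.3% of 32851 mouse promoters held it. The match of Csf3r, 86 bases before its RefSeq start, lies in the stretch not printed here. TTGCNNAA was found at S100a9, Retnlg and Ly6g and in 9.56% of all promoters. TATAAA, the TATA box, was found at S100a8 and Ly6g and in 12.4% of all promoters. No motif was shared by S100a8 and S100a9, the pair whose transcripts ran most closely together. These matches describe letters in a window and were not tested as binding sites.

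No gene of the 8 passed the test of DUSP6 KO against WT across all genes, and the calgranulins differed most. All 8 had a log2 fold change below 0, as did 51.0% of the 21296 genes tested, and their median was −0.57, where that of all genes was −0.0046. At an unadjusted p under 0.05, S100a8 and S100a9 were lower in DUSP6 KO, which is 2 of 8 genes against 3.03% of all genes, and 0 of 8 were higher, against 2.62%. S100a8 and S100a9 ran almost in parallel across the spleens (Pearson r = 0.996), so they are not 2 independent results. At an adjusted p of 0.05 or less, 0 of 8 were lower, against 0.0329%, and 0 were higher, against 0.0376% (limma, Benjamini-Hochberg adjustment over all genes). Only 7 genes passed as lower and 8 as higher, so missing this limit does not show that a gene was unchanged. For 0 of the 8 genes were all DUSP6 KO spleens below all WT spleens, which held for 0.563% of all genes. From RNA of whole spleen alone, fewer neutrophils and less of an RNA per neutrophil cannot be told apart. By flow cytometry of spleen cells from male mice at the peak of arthritis, the paper found no significant difference in myeloid cell numbers between the genotypes. Its discussion adds that no difference in neutrophil numbers was seen. Whether those counts included the spleens sequenced here is not given, and neutrophil numbers in these spleens were not tested.

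S100a8 was at 132, 182, 269, 241 and 510 FPKM in DUSP6 KO mice 01, 03, 21, 26 and 73, the order used for this group throughout. In WT mice 65, 67, 73, 77 and 83, again in fixed order, it was at 321, 304, 605, 1258 and 533 FPKM. The groups overlapped only through DUSP6 KO 73, since the other 4 DUSP6 KO spleens were below every WT spleen. The mean of DUSP6 KO spleens was 267 ± 146 FPKM, and that of WT spleens 604 ± 388 FPKM (SD, n = 5 each). This was a log2 fold change of −1.13 with a standard error of 0.43 (limma, adjusted p = 0.79), and the two-sided exact permutation test of S100a8 alone gave p = 0.040, where 5 against 5 cannot give less than 0.0079.

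S100a9 repeated this order at a higher level. The DUSP6 KO spleens were at 226, 280, 450, 393 and 762 FPKM and the WT spleens at 595, 488, 940, 1946 and 832 FPKM. Again 4 of 5 DUSP6 KO spleens were below the lowest WT spleen and WT 77 was the highest of all. S100a9 had a log2 fold change of −1.14 with a standard error of 0.40 (limma, adjusted p = 0.75; exact permutation p = 0.040).

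A single spleen, WT 77, carried much of the size of both differences. Without it the mean of WT was 441 ± 151 FPKM for S100a8 and 714 ± 208 FPKM for S100a9 (SD, n = 4). The log2 fold changes were then −0.81 for S100a8 and −0.84 for S100a9, and the exact permutation test gave p = 0.079 for each. Leaving out DUSP6 KO 73 instead gave −1.40 and −1.38, and leaving out both WT libraries with pancreas transcripts gave −1.63 and −1.58. Over all single omissions the limma-adjusted p was 0.549 or more for both genes.

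Cxcr2, the receptor for the CXC chemokines that call neutrophils into tissue, was even in WT and uneven in DUSP6 KO. Its level was 6.63, 6.03, 21.1, 8.21 and 7.99 FPKM in DUSP6 KO spleens and 10.8, 13.1, 13.6, 12.7 and 11.8 FPKM in WT. DUSP6 KO 21 was the highest of the 10 spleens, and the other 4 DUSP6 KO spleens were all below the lowest WT spleen. The coefficient of variation was 62.9% in DUSP6 KO and 9.2% in WT. Over all 10 libraries the log2 fold change was −0.47 with a standard error of 0.29 (limma, adjusted p = 0.95; exact permutation p = 0.21).

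Without DUSP6 KO 21, Cxcr2 was at 7.22 ± 1.06 FPKM in the other DUSP6 KO spleens (SD, n = 4), with 12.4 ± 1.13 FPKM in WT (SD, n = 5), and the groups did not overlap, as for 1.59% of all genes. Its log2 fold change was then −0.78 (limma, adjusted p = 0.04), which made it 1 of the 13 genes, 0.0612% of those tested, that passed as lower. The exact permutation p was 0.016, the smallest that 4 against 5 can give. This spleen was left out after its values were seen, and when WT 77 was left out as well, the adjusted p of Cxcr2 in limma was 0.11 with a log2 fold change of −0.77.

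Csf3r, the receptor for G-CSF, had nearly equal means of 21.3 ± 3.4 FPKM in WT and 21.9 ± 15.1 FPKM in DUSP6 KO spleens (SD, n = 5 each). The single values were 11.7, 14.6, 48.5, 19.9 and 14.8 FPKM in DUSP6 KO spleens and 22.4, 24.6, 24.0, 16.9 and 18.4 FPKM in WT. As for Cxcr2, DUSP6 KO 21 stood above all other spleens and 3 of 5 DUSP6 KO spleens were below every WT spleen. On the log2 scale the difference was −0.15 with a standard error of 0.33 (limma, adjusted p = 0.99; exact permutation p = 0.75), of the opposite sign to the difference of the FPKM means. It was −0.48 without DUSP6 KO 21 (exact permutation p = 0.048; limma, adjusted p = 0.59) and 0.024 without DUSP6 KO 01.

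Ly6g, the surface antigen by which mouse neutrophils are sorted, lies at chr15:75155240-75159126 (plus strand). It was at 1.81, 2.82, 3.17, 2.62 and 5.58 FPKM in DUSP6 KO spleens and at 2.98, 3.50, 5.91, 11.4 and 4.98 FPKM in WT. These levels rest on 37 to 179 reads per library, far fewer than the 1980 to 14512 of S100a8. DUSP6 KO 73 and WT 77 were the highest of their groups, as for both calgranulins, and the groups overlapped. Its log2 fold change was −0.76 with a standard error of 0.37 (limma, adjusted p = 0.92; exact permutation p = 0.095), and it was −0.47 without WT 77 and −1.19 without WT 65 and WT 67.

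Mmp25, a membrane-anchored metalloproteinase of leukocytes, lies at chr17:23628311-23645277 (minus strand). It was the lowest of the 8 genes, at 0.487, 0.455, 1.11, 0.970 and 1.34 FPKM in DUSP6 KO spleens and 0.750, 1.21, 1.73, 2.56 and 1.05 FPKM in WT. WT 77 was the highest spleen and the groups overlapped. The log2 fold change was −0.67 with a standard error of 0.37 (limma, adjusted p = 0.94; exact permutation p = 0.14), and −0.45 without WT 77. The gene model overlaps AC154766.2 and AC154766.3, and since it is not given whether the counting used strand, its level is uncertain.

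Retnlg, a resistin-like protein secreted by myeloid cells, lies at chr16:48872621-48874496 (plus strand). It was at 26.9, 40.2, 70.5, 39.4 and 86.7 FPKM in DUSP6 KO spleens and 70.4, 68.5, 76.2, 71.2 and 44.4 FPKM in WT. The 5 WT spleens were alike except for WT 83, while in DUSP6 KO 3 spleens were below and DUSP6 KO 73 above all WT spleens. For Retnlg the log2 fold change was −0.43 with a standard error of 0.30 (limma, adjusted p = 0.96; exact permutation p = 0.30), and it lay between −0.64 and −0.22 when each library was left out in turn, the latter without DUSP6 KO 01.

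Stfa2l1, a stefin that inhibits cysteine proteases, lies at chr16:36156811-36161953 (plus strand). It was at 2.53, 5.61, 10.4, 6.65 and 5.38 FPKM in DUSP6 KO spleens and 4.33, 7.13, 7.89, 5.17 and 7.86 FPKM in WT, from 23 to 85 reads per library. DUSP6 KO 21 was the highest and DUSP6 KO 01 the lowest spleen, and the groups overlapped. The log2 fold change was −0.17 with a standard error of 0.32 (limma, adjusted p = 0.99; exact permutation p = 0.68) and turned to 0.10 without DUSP6 KO 01.

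The reads of Stfa2l1 may be shared with its neighbour Stfa2, whose transcript is 96.5% identical to it over 367 aligned bases. The coding sequences, of 309 bases each, differ at 11 positions, and 7 of these are in the first 150 bases, which are shown here from the GENCODE transcripts with the differing bases in capitals.
Stfa2l1: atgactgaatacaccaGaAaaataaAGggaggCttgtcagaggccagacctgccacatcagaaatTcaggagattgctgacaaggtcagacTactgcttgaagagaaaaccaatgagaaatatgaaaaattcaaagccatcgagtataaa
Stfa2: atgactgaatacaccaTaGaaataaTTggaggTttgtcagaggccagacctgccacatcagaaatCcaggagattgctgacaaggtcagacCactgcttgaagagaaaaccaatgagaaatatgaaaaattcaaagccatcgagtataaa

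Stfa2 itself was at 0 to 1.15 FPKM in WT spleens and 0 to 0.869 FPKM in DUSP6 KO spleens. How reads that fit both copies were counted is not given, so these low values do not show how much of the Stfa2l1 level is shared. Csf3r has a near copy too, AC105061.2, which is 96.8% identical over 1518 bases and was not analysed here.

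Without WT 65 and WT 67, the libraries with pancreas transcripts, the log2 fold change was −0.50 for Cxcr2, −0.042 for Csf3r, −0.97 for Mmp25, −0.37 for Retnlg and −0.29 for Stfa2l1, and the limma-adjusted p was 0.66 or more for all 8 genes.

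**Figure D1:**
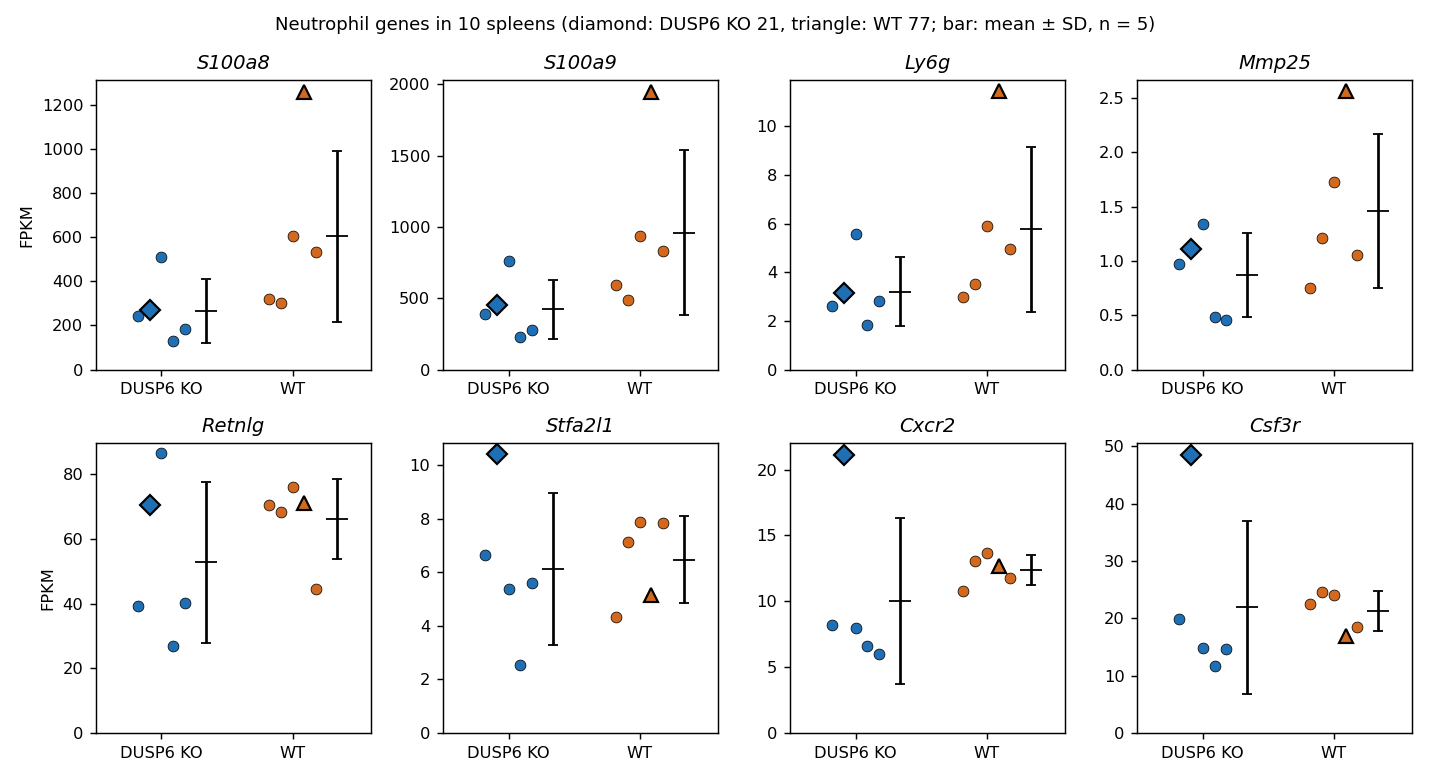
FPKM (linear axes from 0) of the 8 genes in 5 DUSP6 KO (blue) and 5 WT (orange) spleens, with 1 point per spleen and the mean ± SD (n = 5) beside each group. DUSP6 KO 21 (diamond) was highest for Stfa2l1, Cxcr2 and Csf3r, and WT 77 (triangle) was highest for S100a8, S100a9, Ly6g and Mmp25.

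**Figure D2:**
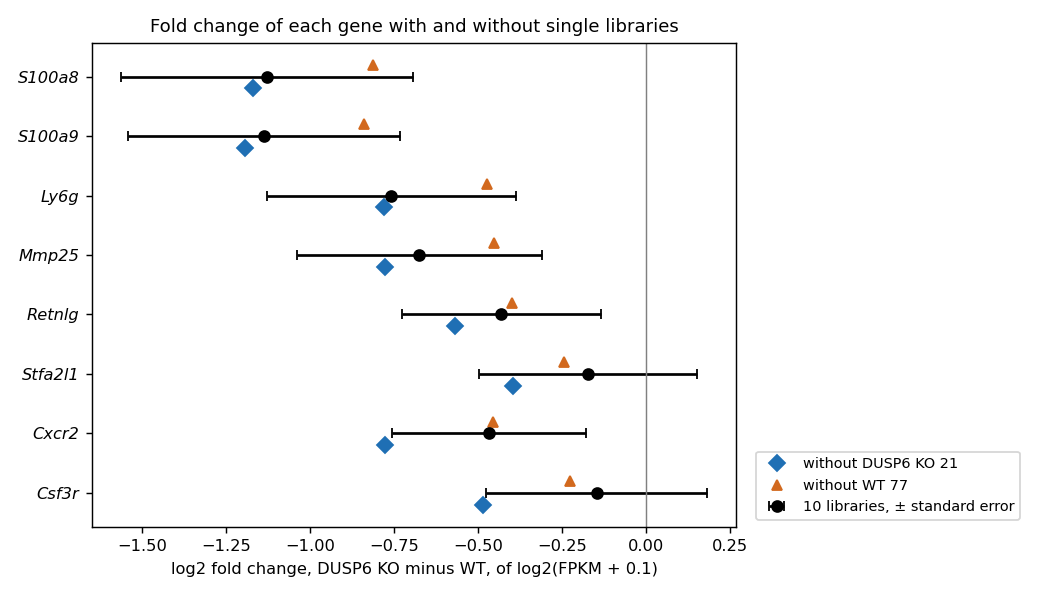
Log2 fold change (DUSP6 KO minus WT, of log2(FPKM + 0.1)) of each gene over all 10 libraries with its standard error (black), without DUSP6 KO 21 (diamonds) and without WT 77 (triangles). Leaving out WT 77 brought S100a8 from −1.13 to −0.81, and leaving out DUSP6 KO 21 brought Cxcr2 from −0.47 to −0.78.

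The 8 genes did not rank the spleens alike. WT 77 was the highest spleen for S100a8, S100a9, Ly6g and Mmp25, DUSP6 KO 21 for Cxcr2, Csf3r and Stfa2l1, and DUSP6 KO 73 for Retnlg. At the lower end they shared more. DUSP6 KO 01 was the lowest spleen for 6 of 8 genes and among the lowest 2 for all 8, and DUSP6 KO 03 was the lowest for the remaining 2, Cxcr2 and Mmp25. WT 73 was never the highest but was among the highest 2 for 7 of 8 genes.

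Over the 10 spleens, S100a8 and S100a9 ran almost in parallel (Pearson r = 0.996, permutation adjusted p = 0.00028; Spearman rho = 1, permutation adjusted p = 0.00028), and r was 0.988 without WT 77 and DUSP6 KO 01, the spleens farthest from the median. Cxcr2 followed Csf3r (r = 0.875, permutation adjusted p = 0.0045; rho = 0.867, permutation adjusted p = 0.012; r = 0.769 without DUSP6 KO 21 and DUSP6 KO 03). S100a8 and Csf3r, by contrast, had r = 0.081 (permutation adjusted p = 0.85; rho = 0.248, permutation adjusted p = 0.55; r = −0.090 without WT 77 and DUSP6 KO 01). Adjustment was over the 28 pairs of genes, of which 7 passed by Pearson and 11 by Spearman.

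Grouped after these values were seen, all 6 pairs among S100a8, S100a9, Ly6g and Mmp25 had r of 0.886 to 0.996. The 3 pairs among Cxcr2, Csf3r and Stfa2l1 had r of 0.692 to 0.875, and the 12 pairs between both sets had r of 0.0175 to 0.609. With the group means subtracted these ranges were 0.843 to 0.995, 0.702 to 0.919 and −0.069 to 0.492. Without the 2 spleens farthest from the median of the first gene of each pair they were 0.759 to 0.988, 0.358 to 0.769 and −0.194 to 0.667, so the second set then overlapped the pairs between both sets. Csf3r and Stfa2l1 gave the 0.358 (without DUSP6 KO 21 and DUSP6 KO 01), and Cxcr2 and Mmp25 the 0.667 (without DUSP6 KO 21 and DUSP6 KO 03). All genes of a spleen come from 1 library, so these values share its depth and cell makeup.

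The ratio of S100a8 to S100a9 was 0.582 to 0.670 in DUSP6 KO and 0.540 to 0.646 in WT, a range of 1.24-fold over all spleens. That of Cxcr2 to Csf3r was 0.412 to 0.566 in DUSP6 KO and 0.480 to 0.750 in WT, a range of 1.82-fold. The ratio of S100a8 to Csf3r spread over 13.4-fold, from 5.55 in DUSP6 KO 21 to 74.5 in WT 77. Its median was 12.1 in DUSP6 KO and 25.3 in WT and the groups overlapped. These ratios were chosen with the values in view and were not tested.

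**Figure D3:**
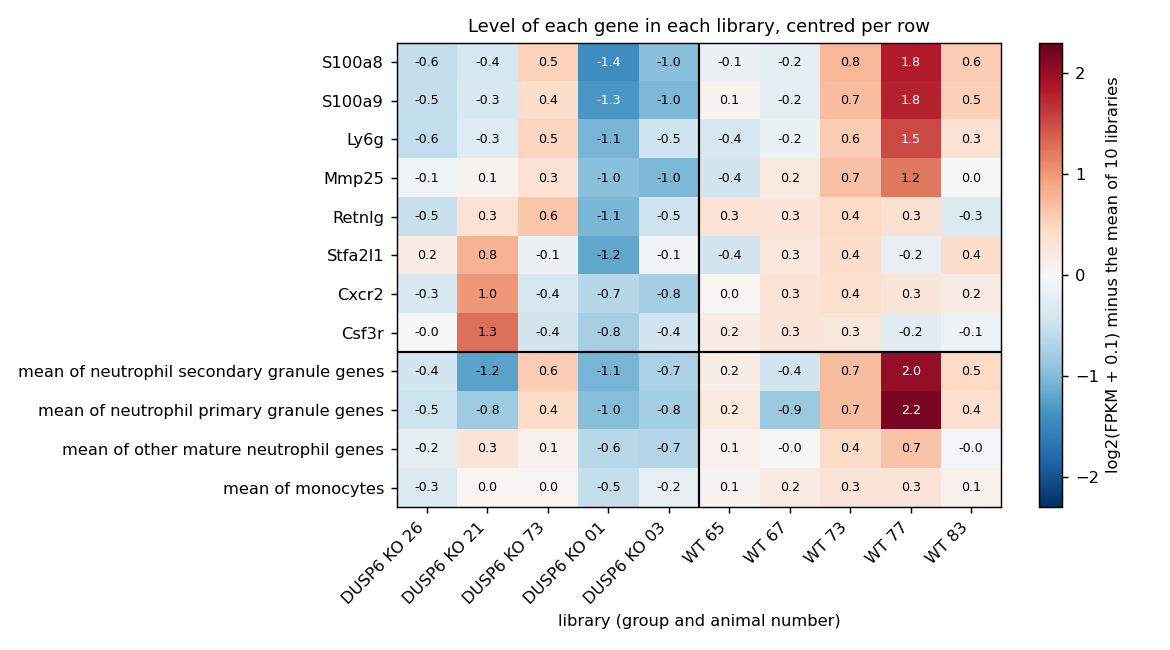
Log2(FPKM + 0.1) of each of the 8 genes in each library minus its mean over the 10 libraries (colour and number), with the means of 4 other gene lists below the line and DUSP6 KO left of the vertical line. WT 77 stood out in the calgranulin, Ly6g and granule rows, DUSP6 KO 21 in the Cxcr2 and Csf3r rows, and DUSP6 KO 01 was low in every row.

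**Figure D4:**
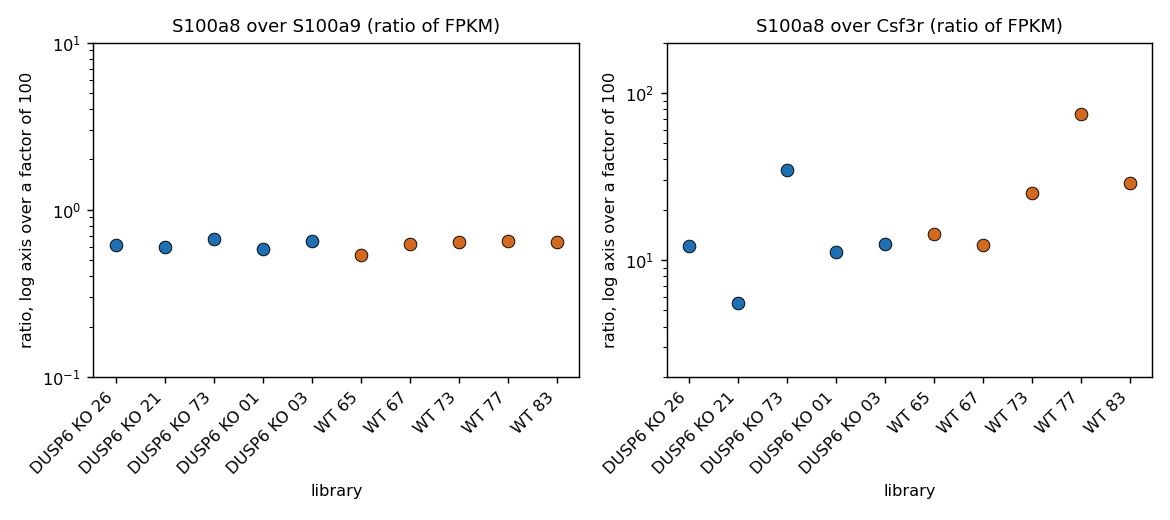
Ratio of FPKM of S100a8 to S100a9 (left) and of S100a8 to Csf3r (right) in each library, on log axes that each span a factor of 100, with DUSP6 KO in blue and WT in orange. The left ratio stayed between 0.540 and 0.670, and the right ratio ran from 5.55 to 74.5.

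Genes with the most similar profile were searched among 13413 genes whose mean reached 1 FPKM, by the root mean square distance of the centred log2 levels over the 10 libraries. Nearest to the mean of the 8 genes were Igkv17-127 (distance 0.21), an antibody light chain gene, and Wfdc17 (0.22), Ckap4 (0.23), Anxa1 (0.24), Fpr2 (0.24), Itgam (0.24), Pi16 (0.24) and Ms4a6d (0.24). Fpr2 is a receptor for formyl peptides and for annexin A1, the product of Anxa1, and Itgam encodes CD11b, an integrin of myeloid cells.

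Searched one by one, the 8 genes had different neighbours. S100a8, S100a9 and Ly6g each had Mmp8, the neutrophil collagenase kept in granules, as the nearest gene, at distances of 0.18, 0.14 and 0.25. The next nearest to S100a8 were Cd177, Ms4a3, Lcn2 and Chil3. They are on the granule lists used here, whose genes are made while neutrophils still mature in the marrow. Cxcr2 was nearest to Tspan2 (0.18) and Ccr1 (0.21), Csf3r to Tmem181b-ps (0.24) and Lilrb4a (0.26), and Retnlg to Cd5l (0.22) and Ccr2 (0.24). The distance of S100a8 to 11 granule genes (those listed next) was 0.27 to 0.49, while it was 0.81 to Cxcr2 and 1.01 to Csf3r. S100a9 was at 0.23 to 0.48 from the granule genes and at 0.76 and 0.96 from Cxcr2 and Csf3r, and Ly6g was at 0.29 to 0.56, 0.70 and 0.88. Cxcr2 and Csf3r were 0.26 apart. Mmp25 was at 0.46 to 0.74 from the granule genes (median 0.62), at 0.53 from Cxcr2 and at 0.71 from Csf3r. Across these spleens, then, S100a8, S100a9 and Ly6g each ran closer to all 11 granule genes than to either receptor, which did not hold for Mmp25. The name mature neutrophil genes is thus that of the list, and the stage of the cells behind these RNAs was not tested.

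The granule genes were highest in WT 77 as well. For the 6 genes of secondary granules (Ltf, Camp, Ngp, Lcn2, Chil3 and Cd177), the mean log2 level was 7.68 in WT 77, the highest of the 10, and 4.42 in DUSP6 KO 21, the lowest. DUSP6 KO 21 was thus the spleen with most Cxcr2 and Csf3r and least secondary granule RNA. The primary granule list held Elane, Mpo, Prtn3, Ctsg and Ms4a3. For these 5 genes, the mean log2 level was 6.00 in WT 77, the highest, and 2.99 in DUSP6 KO 21, with DUSP6 KO 01 the lowest at 2.84. All 6 secondary granule genes were lower in DUSP6 KO spleens at an unadjusted p under 0.05, around a median log2 fold change of −1.19. On the primary granule list 2 of 5 were, Elane and Ms4a3, and the median of that list was −1.06. Of all genes, 3.03% were lower at that limit. None of the 11 listed granule genes passed the adjustment (limma). Without WT 77 the medians were −0.80 and −0.69, and without both WT 77 and DUSP6 KO 21 they were −0.63 and −0.64, while without WT 65 and WT 67 they were −1.73 and −1.64.

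Among 18 other genes listed for mature neutrophils, 14 were lower and 4 higher in DUSP6 KO spleens, and their median log2 fold change was −0.33. By the unadjusted test, 4 were lower at an unadjusted p under 0.05 (3.03% of all genes) and 0 higher (2.62%), and 0 passed the adjustment. The 4 were Wfdc21 (−1.46, adjusted p = 0.75), Il1r2, a decoy receptor for IL-1 (−0.78, adjusted p = 0.72), Hdc, which makes histamine (−0.74, adjusted p = 0.84), and Padi4, the enzyme that citrullinates histones in neutrophil extracellular traps (−0.68, adjusted p = 0.79), all by limma. Receptors for formyl peptides and leukotriene B4 had smaller differences. Fpr1 was at 9.83 ± 1.99 FPKM in WT and 11.5 ± 3.4 FPKM in DUSP6 KO spleens, and Ltb4r1 at 4.81 ± 2.50 and 4.10 ± 1.08 FPKM (SD, n = 5 each).

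Along the CXCR2 and G-CSF pathways, 12 of 16 listed genes were tested, 8 were lower and 4 higher in DUSP6 KO, and the median log2 fold change was −0.12. At an unadjusted p under 0.05, 2 were lower (3.03% of all genes) and 0 higher (2.62%), and 0 passed the adjustment. They were Socs3, the feedback inhibitor of the G-CSF receptor (11.3 ± 2.6 against 15.6 ± 3.3 FPKM, log2 fold change −0.47, limma-adjusted p = 0.77), and Cebpe, a transcription factor of granule genes (2.78 ± 1.70 against 7.32 ± 6.09 FPKM, −1.22, limma-adjusted p = 0.84; SD, n = 5 each). Among the ligands, Cxcl1 was scarce at 0.114 ± 0.045 FPKM in WT and 0.227 ± 0.114 FPKM in DUSP6 KO spleens (SD, n = 5 each). Csf3 was at or below 0.276 FPKM in every spleen. Cxcl5 was higher, at 1.21 ± 0.48 FPKM in WT and 1.24 ± 0.44 FPKM in DUSP6 KO spleens (SD, n = 5 each). Ppbp, a platelet-borne precursor of CXCR2 ligands, was abundant at 185 ± 63 FPKM in WT and 136 ± 22 FPKM in DUSP6 KO spleens (SD, n = 5 each; limma-adjusted p = 0.94).

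The sensors of S100A8 and S100A9 differed little. Of Tlr4, Ly96, Cd14, Ager and Bsg, 3 were lower and 2 higher, none had an unadjusted p under 0.05, and the median log2 fold change was −0.043. Tlr4 was at 3.96 ± 0.52 FPKM in WT and 3.62 ± 0.75 FPKM in DUSP6 KO spleens, and Ager, which encodes RAGE, at 1.46 ± 0.28 and 1.38 ± 0.38 FPKM (SD, n = 5 each).

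No relative of the 8 genes passed the adjustment (limma). Of 9 other S100 genes tested, 7 were lower and 2 higher, with a median of −0.10, which was −0.023 without DUSP6 KO 01. S100a6 was the one with an unadjusted p under 0.05 (30.6 to 58.1 FPKM in DUSP6 KO, 51.2 to 61.2 FPKM in WT, log2 fold change −0.42, limma-adjusted p = 0.75), and S100a4, with mean levels under 1 FPKM, had the largest log2 fold change of the 9 (−1.17, limma-adjusted p = 0.92). Of 7 other Ly6 genes tested, 6 were lower, with a median of −0.22 that was −0.11 without WT 67 and −0.023 without WT 65 and WT 67, and Ly6c2, a monocyte antigen, was the one under 0.05 (−0.53, limma-adjusted p = 0.87). Of 6 other metalloproteinases 3 were lower and 3 higher, and their median of −0.020 had no stable sign, since it ran from −0.14 without DUSP6 KO 21 to 0.079 without DUSP6 KO 26 and was also above 0 without WT 73 or WT 77, with a pseudocount of 1 and with quantile normalization. Among them Mmp8 was lower (−1.01) and Mmp15 higher (0.46) at an unadjusted p under 0.05 and a limma-adjusted p of 0.79 for each. In the stefin A family, Stfa1 was at 0 FPKM in all 5 DUSP6 KO libraries. It was at 0.0738 to 0.735 FPKM in WT, from only 1 to 9 reads per library (limma-adjusted p = 0.40). Of all genes, 0.563% were likewise lower in every DUSP6 KO spleen than in any WT spleen. The other 4 stefin genes tested had an unadjusted p above 0.05. Of these, Stfa3 (log2 fold change −0.88) and BC100530 (1.2) differed in opposite directions at mean levels under 1 FPKM, with limma-adjusted p of 0.98 and 0.94. Retn and Retnla, relatives of Retnlg, had mean levels under 1 FPKM in both groups, log2 fold changes of −0.44 and −0.80 and an adjusted p of 0.99 each (limma). The folds of Stfa3 and BC100530 were thus larger in size than the −0.17 of Stfa2l1, and that of Retnla than the −0.43 of Retnlg.

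**Figure D5:**
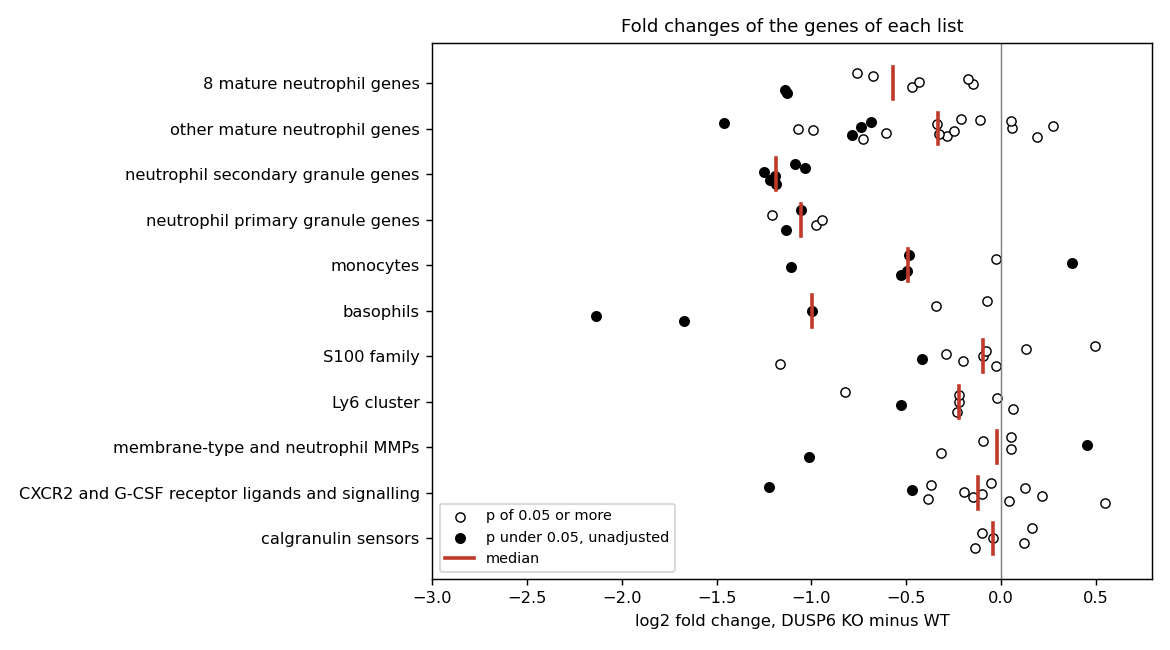
Log2 fold change (DUSP6 KO minus WT) of the 8 genes listed for mature neutrophils and of each tested gene of 10 other lists, with 1 point per gene. Points are filled where the unadjusted limma p was under 0.05, and the red line is the median. Secondary granule genes lay together near their median of −1.19, while the 8 genes spread from −1.14 to −0.15.

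Of genes listed for other myeloid cells, none passed the adjustment (limma), and 5 of 6 monocyte, 3 of 5 basophil and 0 of 5 eosinophil genes had an unadjusted p under 0.05. Of all genes, 3.03% were lower and 2.62% higher at that limit. Monocytes also make S100a8 and S100a9, and of 6 monocyte genes Ly6c2, Ccr2, F13a1 and Ms4a4c were lower and Csf1r was higher at an unadjusted p under 0.05, and their median log2 fold change was −0.49. Their summed level was 189 to 262 FPKM in DUSP6 KO and 208 to 238 FPKM in WT, and none was at 0. The largest part of this sum was Csf1r, at 136 to 180 FPKM in DUSP6 KO and 96.8 to 133 FPKM in WT. The sum therefore does not reflect the monocyte genes that were lower. Of 5 basophil genes, Prss34, Mcpt8 and Ms4a2 were lower in every DUSP6 KO spleen than in any WT spleen, which held for 0.563% of all genes. Prss34 passed the adjustment in the study's own test on counts (DESeq2). The summed level of the 5 basophil genes was 6.44 to 11.1 FPKM in DUSP6 KO and 15.8 to 42.0 FPKM in WT. The part of monocytes or basophils in the values of the 8 genes was not tested.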

How the data were processed

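RNA of 10 spleens was sequenced on an Illumina platform after poly-A selection. Paired-end reads were aligned (Hisat2) and counted per gene (featureCounts 1.5.0-p3 per the submitters' processing notes), and the authors deposited FPKM with gene lengths. The notes name hg38, but the genes are mouse genes, and 98.3% of the 54532 have the coordinates of GENCODE release 21 (GRCm38). Whether counting used strand is not given in the sources used here.

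FPKM times length was a whole multiple of 1 step per library (100% of values within 0.001 reads), which gave the reads. The depth implied by the deposited FPKM was 0.949 to 1.12 times the summed reads. Replicates differed beyond sampling noise (chi-square per gene 13.4 to 151 over 20 pairs).

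Groups were compared with limma 3.58.1 (R 4.3.3) by lmFit and a trended eBayes of log2(FPKM + 0.1), over the 21296 genes that averaged 0.1 FPKM or more. Adjustment was by Benjamini-Hochberg, and calls were made at 0.05. Fold changes on this scale understate low genes. Single genes had two-sided exact permutation tests, and correlations used 100000 permutations. Scripts were tested on simulated data. Transcripts were aligned with blastn 2.17.0.

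Genes and lists were chosen with earlier results of these data known. Named were the 8 genes, Dusp6, up to 4 genes of lowest p per list (all of lists of 6 or fewer) and the 8 genes of most similar profile. Fpr1, Ltb4r1, Tlr4, the CXCR2 ligands, the copies of Stfa2l1 and Csf3r and the neighbours of single genes were named after their values were seen. Alternatives were pseudocounts of 1 and 0.01, other filters, variance models, scalings and library weights, limma voom on the reads, and omitted libraries. Scaling to the summed reads and omitting WT 65 with WT 67, or DUSP6 KO 21 with WT 77, were added after seeing the data. No protein sequences were used here.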

Additional observations from a re-analysis of the deposited data

Results flagged for a closer look

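The levels of the 8 genes, means of 10 gene lists, 2 ratios and the summed reads were examined in both groups. Of these 42 groups of 5 values, 7 held a spleen whose gap to its nearest neighbour exceeded 0.71 of the group range. Chance gives about 1 in 20. No list mean was among the 7. Csf3r was at 48.5 FPKM in DUSP6 KO 21, next to 19.9 in DUSP6 KO 26. Cxcr2 in the same spleen was at 21.1 FPKM, next to 8.21. Retnlg was at 44.4 FPKM in WT 83, below the next value of 68.5. The ratio of S100a8 to S100a9 was 0.540 in WT 65, below the next value of 0.622. The ratio of S100a8 to Csf3r was 34.5 in DUSP6 KO 73, next to 12.4, and 74.5 in WT 77, next to 29.0. WT 67, which also held the most pancreas transcripts, had 18422147 reads, next to 16348136.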

How the results depend on the processing

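No paired analysis was possible, since the groups are different mice and the labels pair none of them. The number 73 occurs in both groups and names a different mouse in each. Of 1389 values recomputed under 24 alternatives for 58 results, 1371 kept their direction and their side of the threshold, or moved less than the limits set for them. Under the 12 alternatives that kept all libraries, 96 of 96 fold changes of the 8 genes kept their sign, and 190 of 192 did under all. Csf3r turned to 0.024 and Stfa2l1 to 0.10 without DUSP6 KO 01, and Mmp14 to −0.043 without WT 65 and WT 67. Cxcr2 passed the adjustment without DUSP6 KO 21 (−0.78, limma-adjusted p = 0.04), so that 0 to 1 of the 8 genes passed when each library was left out in turn. With each library left out, the log2 fold change was −1.40 to −0.81 for S100a8, −1.38 to −0.84 for S100a9, −0.78 to −0.33 for Cxcr2, −0.48 to 0.024 for Csf3r and −0.40 to 0.10 for Stfa2l1. The 2 genes at an unadjusted p under 0.05 became 1 to 5 (5 without DUSP6 KO 73, where 2.98% of all genes were lower, 4 without DUSP6 KO 21, with 4.4%, or without WT 65, with 3.18%, and 1 without DUSP6 KO 01, DUSP6 KO 03, WT 73 or WT 77), 5 with array weights (4.34% of all genes) and 4 without both WT 65 and WT 67 (2.81%). The median of primary granule genes was −1.64 without WT 65 and WT 67 and −0.69 without WT 77, that of secondary granule genes was −1.73 and −0.80, and both were weakest without WT 77 and DUSP6 KO 21 (−0.64 and −0.63). The median of the metalloproteinases turned to as much as 0.079 (without DUSP6 KO 26), that of monocyte genes ranged from −0.53 to −0.36 over single omitted libraries, and that of basophil genes was −0.39 with a pseudocount of 1. Leaving out a library shows only which spleen a value depends on, and the cause of these shifts was not tested. Mmp25, Ly6g and Stfa2l1 rest on few reads, which limits their precision, and counting error was not separated from the spread between mice.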

Other observations

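Genes of lymphoid and other cells gave values that stand in no comparison above. The 5 B cell genes were all lower in DUSP6 KO spleens (median log2 fold change −0.23), and 0 had an unadjusted p under 0.05. T cell genes had a median of 0.03 and also 0 under that limit. All 5 erythroid genes were higher, with a median of 0.27, again 0 under it, and each was highest in DUSP6 KO 73. Of 4 platelet genes tested, Pf4 (62.2 to 91.3 FPKM in DUSP6 KO, 66.3 to 143 FPKM in WT) and Itga2b (8.33 to 13.3 and 10.4 to 20.7 FPKM) were lower at an unadjusted p under 0.05, and both were highest in WT 77, with limma-adjusted p of 0.77 each. The 5 eosinophil genes were lower with a median of −0.20 and 0 under that limit.

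Among basophil genes, Prss34, a serine protease of these cells, was at 11.9 ± 6.6 FPKM in WT and 2.58 ± 1.24 FPKM in DUSP6 KO spleens, with a log2 fold change of −2.13 (SD, n = 5 each; limma-adjusted p = 0.19). In the study's own test on counts (DESeq2), Prss34 did pass the adjustment as lower in DUSP6 KO. Mcpt8 gave −1.67 on the log2 scale (limma-adjusted p = 0.31). When each library was left out in turn, it ran from −1.99 to −1.38, with a limma-adjusted p of 0.046 to 0.61. The lowest p came without WT 65, the WT spleen with least Mcpt8, and this omission was picked after the values were seen. F13a1, a coagulation factor subunit made by monocytes and platelets, was at 2.89 ± 0.82 and 6.51 ± 2.54 FPKM with no overlap between the groups (SD, n = 5 each; limma-adjusted p = 0.34). Csf1r, the receptor for macrophage growth factor, was higher in every DUSP6 KO spleen (136 to 180 FPKM) than in any WT spleen (96.8 to 133 FPKM, limma-adjusted p = 0.55). Of all genes, 0.549% were higher in this way.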
